A study of Mus musculus with 8 samples.

Results

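The chromatin occupancy of wild type KLF1-ER and of KLF1-E339K-ER was compared at the 5551 sites of the consensus peak set, and all 5551 were kept. Each site carries 1 concentration for each of the 2 proteins, the log2 of the mean normalised read count over the site. Sites were placed in classes by the difference between these values. A site was called higher for one protein when its concentration was at least 4-fold above that of the other, and within 4-fold when it was not. Both proteins were studied in K1 cells, an immortalised mouse erythroid line without functional KLF1, in which the introduced protein carries a hormone-binding part of the estrogen receptor (ER). The fusion stays in the cytoplasm until 4-hydroxytamoxifen (4-OHT) is added. KLF1-E339K-ER was profiled in K1-E339K-ER cells (CLONE 2A, a single clone) with 1 ChIP library beside 1 of input, after the cells were induced for 3 h with 200 nM 4-OHT and fixed with 0.4% formaldehyde. DNA fragments of 200 to 400 bp were recovered with an antibody to the estrogen receptor, and per the labels material of 3 replicates was pooled into the library. The KLF1-ER libraries came from earlier work of the authors in K1-ER cells, and only their column of the site table was used. The 2 proteins were therefore profiled in different cell lines and experiments, and protein, clone and experiment cannot be told apart. With 1 value per protein and site there is no replicate spread, so all differences below are descriptions of these values and none was tested. The depth of the libraries is unknown.

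KLF1 is the founding erythroid member of the KLF/SP family, whose zinc fingers read a G-rich 9-base motif on one strand, or its CACCC-type complement on the other. In red cell precursors it activates globin, heme synthesis, membrane and cell cycle genes, from promoters as well as from distal elements that also carry GATA motifs. The E339K substitution lies in the second zinc finger, which contacts the middle bases of the motif, and is the mouse form of the human change that causes congenital dyserythropoietic anaemia type IV. Erythroid genes were described by mean expression, a log2 CPM (read count scaled to library size) averaged by the authors over libraries of nascent RNA. These values come from the authors' fit named for KLF1-ER, so they do not describe the K1-E339K-ER cells on their own. The median over the 11364 listed genes was 5.27. Of the erythroid transcription factor genes, 17 of 20 with a value were above it, from 0.93 at Myb to 10.8 at Zfpm1, with a list median of 7.68. All 12 heme synthesis genes were above it as well, the lowest being Alas2 (5.29), and so were 20 of 23 genes of the red cell membrane and skeleton. The same held for 67 of 74 ribosomal protein genes and 19 of 20 genes of fatty acid and sterol synthesis. A value above the median is thus not particular to erythroid genes. The listed values of the globin genes were low, with 1 of 8 above the median and a list median of 3.8. RNA reads of low mapping quality had been removed and alpha globin has near-identical gene copies. Low values there are therefore uncertain. Of 18 megakaryocyte genes 3 were listed, from 1.79 at Gp9 to 5.30 at Itga2b, and 2 of them were just above the median.

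The sequences at 8 sites of high concentration show the motif as it occurred in each class. They are the central 101 bp of each site in the mm9 genome, printed 5′ to 3′ on the strand that reads G-rich, and capitals mark a 9-base match to NGGGNGGGG or NGGGNGTGG, in which the base at position 5 was free. Where a window held more than 1 match, a single one was capitalised. The first 3 sites were higher for KLF1-E339K-ER, the next 3 were higher for KLF1-ER and the last 2 were within 4-fold. Sites are named by the gene with the closest transcription start site (TSS).
Zfpm1 intron, chr8:124820596-124820696 (plus strand): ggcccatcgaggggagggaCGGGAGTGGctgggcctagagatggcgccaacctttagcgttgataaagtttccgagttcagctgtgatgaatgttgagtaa
St6galnac6 promoter, chr2:32462775-32462875 (minus strand): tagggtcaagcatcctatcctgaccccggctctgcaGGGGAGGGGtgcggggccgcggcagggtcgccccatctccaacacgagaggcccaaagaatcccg
Cd247 intron, chr1:167775094-167775194 (minus strand): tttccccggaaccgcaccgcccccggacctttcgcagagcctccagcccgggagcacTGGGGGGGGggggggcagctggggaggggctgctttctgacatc
Ap5z1 (in an intron of Foxk1), chr5:142916589-142916689 (minus strand): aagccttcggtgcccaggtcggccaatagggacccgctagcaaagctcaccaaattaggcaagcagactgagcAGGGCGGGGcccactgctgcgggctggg
Sde2 promoter, chr1:182781024-182781124 (minus strand): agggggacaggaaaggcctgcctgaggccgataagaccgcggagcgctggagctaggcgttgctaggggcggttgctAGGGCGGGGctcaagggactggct
Snx22 promoter, chr9:65917600-65917700 (minus strand): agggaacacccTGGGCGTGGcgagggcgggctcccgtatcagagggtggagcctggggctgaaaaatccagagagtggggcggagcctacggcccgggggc
Asic1 upstream, chr15:99495198-99495298 (minus strand): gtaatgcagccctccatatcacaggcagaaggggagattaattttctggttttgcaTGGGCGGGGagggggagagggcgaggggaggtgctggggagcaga
Nfe2 upstream, chr15:103088932-103089032 (minus strand): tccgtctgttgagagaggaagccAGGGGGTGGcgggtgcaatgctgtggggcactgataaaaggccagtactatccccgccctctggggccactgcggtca
The marked match had A at position 5 in the Zfpm1 and St6galnac6 sequences and G in that of Cd247. All 3 sequences from sites higher for KLF1-ER had C there. Asic1 (C) and Nfe2 (G) were taken from sites at which both proteins were high. The Asic1 window also held a match with A, and the Nfe2 window one with C. The 8 sites were chosen for a high concentration among sites that held a match fitting their class. A match with A or G was held by 46.3% of the sites higher for KLF1-E339K-ER. One with C or T was held by 62.8% of those higher for KLF1-ER. The sequences shown thus illustrate the counts given further on and do not add to them.

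The 2 concentrations ran against each other over the sites. The sites had been called as peaks, and at only 32 of the 5551 were both concentrations below 4. Sites low for both proteins were thus largely absent from the start. How much of this opposition, and of the like level of the favoured protein given below, comes from that choice was not tested. KLF1-E339K-ER was higher by at least 4-fold at 3068 of 5551 sites (55.3%) and KLF1-ER at 1295 (23.3%), while 1188 (21.4%) were within 4-fold. Among the sites higher for KLF1-E339K-ER, the median concentration was 5.23 for the mutant and 0.50 for the wild type protein. Where KLF1-ER was higher, the medians were 5.37 for the wild type protein and 1.76 for the mutant. Within 4-fold they lay side by side, at 4.93 and 4.96. The favoured protein thus reached about the same level in every class, and it was the level of the other protein that set the classes apart. That other level was uneven between the proteins. KLF1-ER was at its lowest listed value of -0.09, about 1 normalised read, at 1423 of the 3068 sites higher for the mutant (46.4%), and KLF1-E339K-ER was at its lowest value of -0.38 at 146 of the 1295 sites higher for wild type (11.3%). A difference from such a site is a lower bound. Only 883 sites (15.9%) had both concentrations at 4 or more, that is at least 16 normalised reads, and 355 sites (6.40%) had both at 5 or more.

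**Figure D1:**
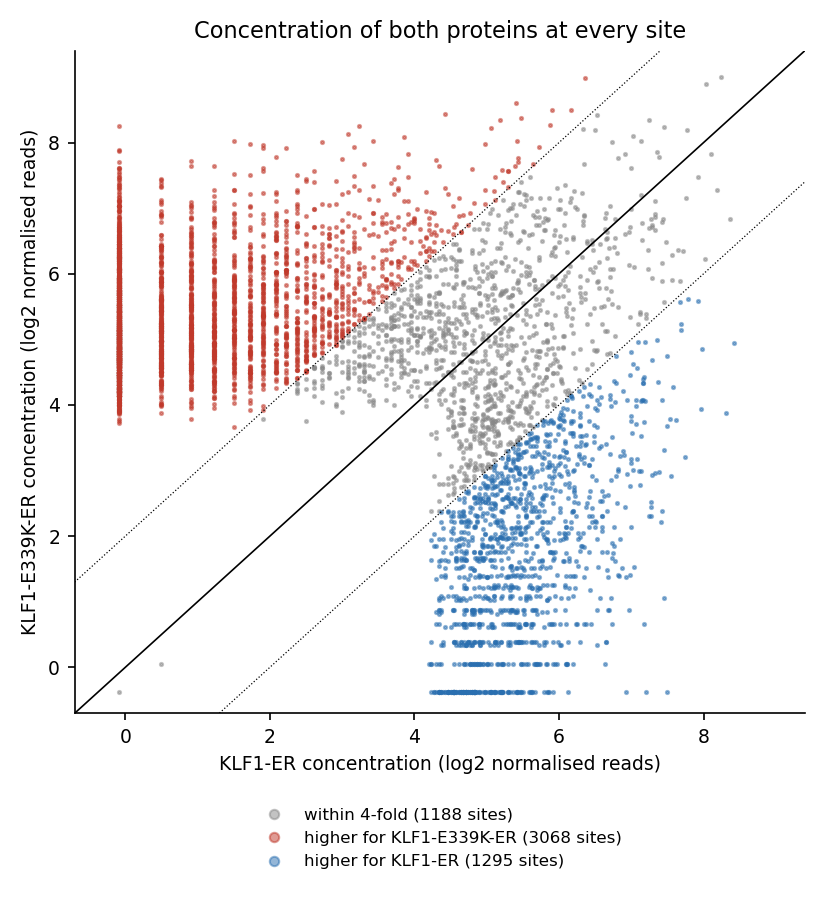
Concentration of KLF1-ER (x axis) and KLF1-E339K-ER (y axis), both as log2 normalised reads, with 1 point per site for all 5551 sites. The solid line marks equal concentrations and the dotted lines the 4-fold limits; 3068 sites lie above the upper dotted line, many of them in the column at the lowest KLF1-ER value of -0.09, and 1295 lie below the lower one.

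The number of sites on each side depended on the scale. The median difference over all sites, mutant minus wild type, was 2.6 on the log2 scale, with quartiles of -1.67 and 4.70. As deposited, 70.3% of the sites that differed by 4-fold were higher for KLF1-E339K-ER and 29.7% for KLF1-ER. Once the differences were centred on their median, the split turned to 42.8% and 57.2%, and with both columns quantile normalised to one another it was 50.7% and 49.3%. The balance of the 2 classes thus depended on the scaling, and the descriptions below compare what kind of site fell in each class. At the 4-fold limit itself, the site of Nt5c2 differed by 2.0 and was counted as higher for the mutant, and that of Suco differed by 1.99 and was not. On the other side, Gatsl3 at -2.0 was counted and Efna5 at -1.99 was not.

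Among the sites higher for KLF1-E339K-ER, the 5 with most of this protein lay at genes of varied function. The highest was 3585 bp upstream of Setd1b, a histone H3K4 methyltransferase gene, at chr5:123588184-123589050. Its concentration was 8.99 for KLF1-E339K-ER and 6.36 for KLF1-ER. At Brd2, which encodes an acetyl-lysine reader of the BET family, a site of 1214 bp that covered the start of the gene (chr17:34258682-34259895) had 8.61 against 5.40. An intron of Zfpm1, which encodes the GATA1 cofactor FOG1, held a site with 8.50 against 5.91 (chr8:124820306-124820987). The site of Mnd1, a meiotic recombination gene, had 8.50 against 6.17, in an intron. At Asic4, an ion channel gene of neurons, the values were 8.44 and 4.43. At 4 of these 5 sites KLF1-ER itself exceeded 5.

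The largest differences were found elsewhere. Leaving out sites at a lowest value, the promoter site of Adnp (chr2:168032536-168032921), 166.5 bp upstream of the start of this chromatin remodelling gene and inside the neighbouring gene Dpm1, had 7.44 for KLF1-E339K-ER and 0.50 for KLF1-ER. A second site of Setd1b, 241.5 bp upstream of its start, had 7.34 against 0.50, and lay close to the strongest mutant site of this class. A site over a UTR exon of Agrn, the agrin gene, had 7.32 against 0.50. The other 2 were closest to Mir26b (7.43 against 0.50), over a UTR exon of Ctdsp1, and to 1700008O03Rik (7.39 against 0.50). KLF1-ER had 0.50 at each of these sites, close to its lowest listed value of -0.09. These differences therefore rest on very few wild type reads, and their order follows the mutant value alone.

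Among the sites higher for KLF1-ER, the highest concentration of this protein was found 171.5 bp upstream of the start of Myh9, the gene of the non-muscle myosin heavy chain IIA (chr15:77672442-77672991), with 8.42 for KLF1-ER and 4.94 for KLF1-E339K-ER. Intergenic sites followed, 46009 bp from 1700019O17Rik (8.31 against 3.88) and 48686.5 bp from Azin1, an antizyme inhibitor gene (7.97 against 3.94). The site closest to Ap5z1 (7.98 against 4.85) lay in an intron of Foxk1, and that of Sde2, a splicing factor gene, lay 208 bp upstream of its start (7.93 against 5.59). Leaving out sites at a lowest value, the largest difference in favour of KLF1-ER was at the promoter of Crocc, which encodes a ciliary rootlet protein (6.64 against 0.05). Zfp119b (7.17 against 0.66) and an intron of Cttnbp2nl (7.45 against 1.05) followed. The mutant values at these sites were also low, beside a lowest listed value of -0.38. At all 5 sites of this class with the highest KLF1-ER values, KLF1-E339K-ER was above 3.

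Sites within 4-fold were as strong, and they held 6 of the 10 highest KLF1-ER values and 4 of the 10 highest KLF1-E339K-ER values of all sites. Their highest sum was found 5901 bp upstream of Asic1 (8.24 for KLF1-ER and 9.0 for KLF1-E339K-ER). The site 3135.5 bp upstream of Nfe2, the gene of the erythroid NF-E2 subunit p45, had 8.03 and 8.90. The promoter of Midn had 7.77 and 8.19, and a distal site 44750 bp upstream of Wdr26, an erythroid ubiquitin ligase gene, had 8.10 and 7.83. At the Klf1 gene itself, a site over an exon had 4.58 for KLF1-ER and 6.08 for KLF1-E339K-ER. The cells carry an introduced Klf1 sequence, and reads from it cannot be told apart from those of the endogenous exon.

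The base at position 5 of the motif differed between the classes. Within 50 bp of the midpoint, G at position 5 was found at 934 of the 3068 sites higher for KLF1-E339K-ER (30.4%) and at 52 of the 1295 sites higher for KLF1-ER (4.02%). The motif with C at this position showed the opposite pattern, with 564 of the sites higher for KLF1-ER (43.6%) and 242 of those higher for the mutant (7.89%). Both A and T lay between these extremes: A was found at 21.3% of the sites higher for the mutant and 11.6% of those higher for wild type, and T at 14.8% and 27.9%. Sites within 4-fold held each of the 4 bases at 13.6% to 23.1%. In windows 1 kb to either side of the sites, each form was found in 2.5% to 4.40%, and in windows of the same length on the protein-coding TSS of the genome C was found in 10.9%, A in 5.61%, T in 3.97% and G in 2.83%. Both strands were searched. A window can hold more than 1 form, and runs of G match several overlapping words, so the shares do not add up.

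**Figure D2:**
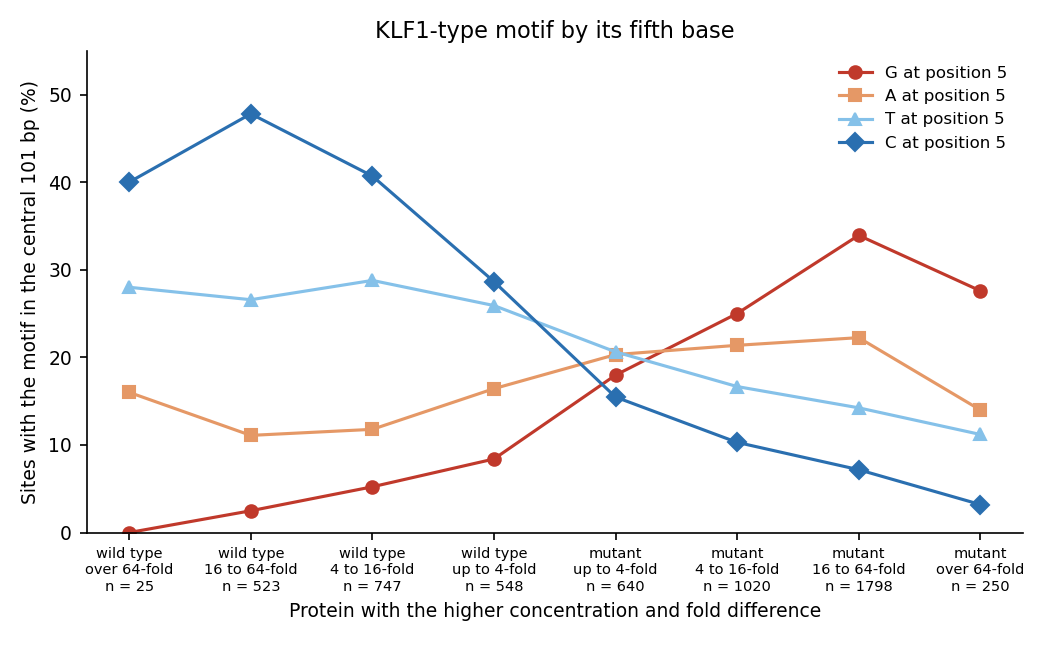
Share of sites (y axis, %) whose central 101 bp hold the 9-base motif with G, A, T or C at position 5, over 8 bins of the fold difference between the 2 concentrations (x axis, with the number of sites in each bin). From left to right the C form falls from 47.8% in the bin of 16 to 64-fold for wild type to 3.20% in the bin over 64-fold for the mutant, and the G form rises from 2.49% to 33.9% in the bin of 16 to 64-fold for the mutant and is 27.6% in the last bin; the first bin holds 25 sites and the last 250.

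The other bases of the motif also differed between the classes. Sites were next compared by the full 9-base word they held. The 5 words with the largest share of sites higher for KLF1-ER all ended in GTGG. Of the 80 sites with CGGGCGTGG, 71 were higher for KLF1-ER and 1 for the mutant, and of the 101 with TGGGTGTGG, 87 were higher for KLF1-ER and 5 for the mutant. By contrast, GGGGCGGGG was held by 476 sites, of which 193 (40.5%) were higher for KLF1-ER and 170 (35.7%) for KLF1-E339K-ER. With G at position 5 the words ending in GGGG were the more one-sided: of the 119 sites with AGGGGGGGG, 111 (93.3%) were higher for the mutant and 0 for wild type, whereas AGGGGGTGG was held by 172 sites, of which 134 (77.9%) were higher for the mutant and 9 (5.23%) for wild type. The word AGGGAGTGG had the reverse balance of the other words with A: 48 of its 100 sites were higher for KLF1-ER and 31 for the mutant, while 425 sites held GGGGAGGGG, of which 313 (73.6%) were higher for the mutant.

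When only sites with a single form of the motif were taken, the order of the bases was the same. The median difference, mutant minus wild type, was 4.55 at the 262 sites with G alone, 3.82 at the 485 with A, -0.44 at the 378 with T and -2.29 at the 475 with C. The 2340 sites with none of these words had a median of 2.95, close to that over all sites, and 1392 of them (59.5%) were higher for KLF1-E339K-ER. The overlap between bases was wide, since the quartiles were 1.18 and 4.86 for A and -4.22 and 1.12 for C. Among the C sites, 101 (21.3%) were still higher for the mutant, and 6 of the 262 G sites (2.29%) were higher for wild type. The shares were lower at the strongest sites. At sites whose higher concentration lay between 4 and 5, 64.2% of those higher for KLF1-ER held a motif with C or T, between 6 and 7 this was 61.1%, and from 7 up, at 63 sites, 49.2%. Among those higher for KLF1-E339K-ER, a motif with A or G was held by 49.6%, 37.5% and 36.2% at the same levels.

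Short words of 6 bases were also searched without regard to the motif. Those given here are among the words with the largest difference between the classes, so their contrast follows in part from that choice. On the G-rich strand each is also part of a form of the motif, so they are no separate evidence. CCCCCC, read on either strand, was found in 46.8% of the sites higher for KLF1-E339K-ER and 4.25% of those higher for KLF1-ER, against 7.13% of the flanking windows. CTCCCC was found in 57.0% and 15.1%. In the other direction, CCGCCC was found in 52.7% of the sites higher for KLF1-ER and 20.4% of those higher for the mutant, and ACGCCC in 31.0% and 3.75%, against 2.24% of the flanking windows. The GATA motif, by contrast, depended on place more than on class. It was searched as AGATAA or AGATAG and as TGATAA or TGATAG, on either strand, and away from promoters it was held by 44.6% of the sites higher for KLF1-E339K-ER, 37.6% of those higher for KLF1-ER and 53.0% of those within 4-fold, with 22.6% to 26.7% in flanking windows.

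The classes differed modestly in their genomic annotation. A promoter site, one whose midpoint lay within 1 kb of the closest TSS, was found in 1107 of the sites higher for KLF1-E339K-ER (36.1%), 540 of those higher for KLF1-ER (41.7%) and 543 of those within 4-fold (45.7%). Exons outside promoters held 6.42%, 3.09% and 4.63%, introns 32.5%, 31.4% and 27.0%, and intergenic DNA 25%, 23.9% and 22.6%. Of the exonic sites higher for the mutant, 74 had their midpoint in coding sequence and 103 in a UTR, and of those higher for wild type 13 and 19. The promoter share was not monotonic in the difference. It was 29.4% at the 523 sites with 16 to 64-fold more KLF1-ER, rose to 51% at the 747 sites with 4 to 16-fold more fell from there to 33.5% at the 1798 sites with 16 to 64-fold more KLF1-E339K-ER and was 40.4% at the 250 sites over 64-fold. Midpoints lay a median of 3506 bp from the closest TSS for sites higher for KLF1-E339K-ER, 3212.5 bp for those higher for KLF1-ER and 1438 bp for those within 4-fold. Distances over 100 kb were found at 165 sites (2.97%), 101 of them higher for the mutant.

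**Figure D3:**
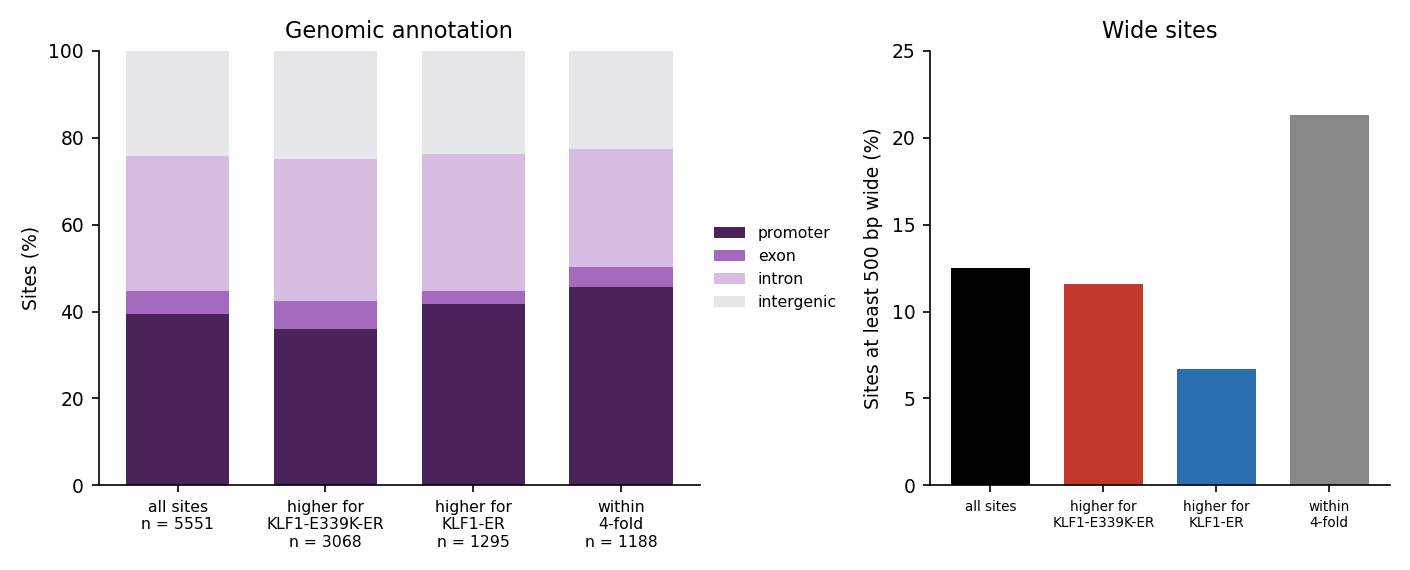
Left, share of sites (y axis, %) in promoters, exons, introns and intergenic DNA for all sites and each class. Right, share of sites at least 500 bp wide (y axis, %). Promoters hold 36.1% of the sites higher for KLF1-E339K-ER and 45.7% of those within 4-fold, and wide sites are 6.72% of those higher for KLF1-ER and 21.3% of those within 4-fold.

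Within promoters the 2 proteins differed in their position about the start of the gene. Distances were turned to the strand of the gene, so that negative positions lay upstream of the TSS. Of the 540 promoter sites higher for KLF1-ER, 385 (71.3%) lay upstream, and 299 (55.4%) fell within the 250 bp just before the start. The 1107 promoter sites higher for KLF1-E339K-ER were spread more evenly, with 474 (42.8%) upstream and 302 (27.3%) in the last 250 bp. Past 250 bp downstream of the start, the 3 bins up to 1 kb held 17.7%, 13.8% and 7.95% of the promoter sites higher for the mutant and 8.70%, 4.26% and 3.52% of those higher for KLF1-ER. Sites within 4-fold lay between these classes, with 60.2% upstream. The median position was 81 bp downstream of the TSS for the mutant class and 67.5 bp upstream for the wild type class. At the very start, 255 sites higher for the mutant (8.31%) and 203 higher for KLF1-ER (15.7%) lay within 100 bp of a TSS.

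**Figure D4:**
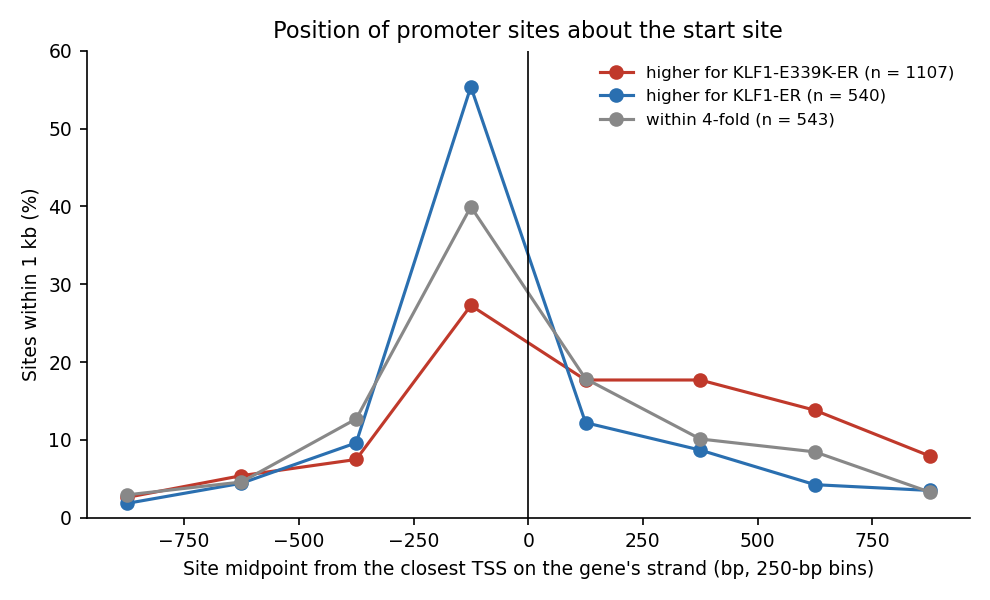
Share of the sites within 1 kb of a TSS (y axis, %) in bins of 250 bp of the position of the midpoint on the strand of the gene (x axis, bp, negative upstream), for each class. The bin just upstream of the start holds 55.4% of the promoter sites higher for KLF1-ER and 27.3% of those higher for KLF1-E339K-ER, and in every downstream bin the share is larger for KLF1-E339K-ER than for KLF1-ER.

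The same contrast was seen from the side of the promoters. Among the 1186 promoter sites upstream of a TSS, 474 (40.0%) were higher for KLF1-E339K-ER and 385 (32.5%) for KLF1-ER, with a median difference of 0.50. Among the 1004 downstream, 633 (63.0%) were higher for the mutant and 155 (15.4%) for wild type, with a median difference of 3.41. The form of the motif changed with position too. A motif with C at position 5 was held by 34.6% of the upstream and 15.7% of the downstream promoter sites, and one with G by 15.5% and 16.9%. The split was also present when promoter sites were divided by their CpG content. The median difference was -0.12 upstream and 3.05 downstream at CpG-rich promoter sites, and 1.42 and 3.93 at the others. A site was counted as CpG-rich at a ratio of observed to expected CpG of at least 0.6 and a GC content of at least 50%. Such sites were 72.8% of the promoter sites higher for KLF1-ER, 61.5% of those higher for KLF1-E339K-ER and 65.4% of those within 4-fold.

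Sites were 301 to 1430 bp wide, and the widest were those at which both proteins were found. The median width was 328 bp for sites higher for KLF1-E339K-ER, 324 bp for those higher for KLF1-ER and 348 bp for those within 4-fold. At least 500 bp were covered by 355 (11.6%), 87 (6.72%) and 253 (21.3%) of them. Wide sites were also the stronger ones, with a Spearman's rho of 0.259 between the width and the higher concentration over the 5551 sites. The order held among sites of like level: where the higher concentration lay between 6 and 7, the median width was 351 bp, 330 bp and 470 bp in the 3 classes. A merged peak set joins overlapping peaks of both proteins, and how much of the width comes from such joining was not tested.

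Many of the sites lay in groups at 1 gene. Another site of any class lay within 10 kb of 44.0% of the sites higher for KLF1-E339K-ER, 34.2% of those higher for KLF1-ER and 48.7% of those within 4-fold. The 5551 sites had 3670 closest genes, of which 2567 (69.9%) had 1 site, 706 had 2 and 85 had 5 or more. Of the 1103 genes with at least 2 sites, all sites were higher for the mutant at 334 (30.3%), all were higher for KLF1-ER at 69 (6.26%), and sites of both classes were found at 275 (24.9%). Of all sites, 55.3% and 23.3% were in these classes. How often sites of 1 gene would share a class from these shares alone was not tested. Among the 552 sites of the genes with 5 or more, 335 (60.7%) were higher for the mutant and 86 (15.6%) for KLF1-ER, against 55.3% and 23.3% of all sites. Genes with a single site had 1381 (53.8%) and 689 (26.8%). On chromosome X, which held 100 sites, 60 were higher for the mutant and 9 for KLF1-ER.

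Gse1, which encodes a coiled-coil protein found in histone demethylase complexes, had the most sites of any gene. Its 32 sites covered 216.63 kb of chromosome 8, from 153924 bp upstream of its closest start, and 24 of them were higher for KLF1-E339K-ER, 1 for KLF1-ER and 7 were within 4-fold. The difference had a median of 4.38 and ran from -2.77 to 6.59. The highest mutant concentration, 8.34, was at the promoter (5.18 for KLF1-ER), 623 bp upstream of the start. At 11 of the 32 sites KLF1-ER was at its lowest value, so many of these differences are lower bounds. KLF1-ER had its own highest value here, 7.56, far upstream at chr8:122892469-122893165, where the mutant had 5.90.

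The other genes picked for most sites higher for KLF1-E339K-ER held mainly such sites. This follows in part from that choice, and 55.3% of all sites were of this class. Rara, the retinoic acid receptor alpha gene, had 9 sites, of which 8 were higher for KLF1-E339K-ER, with differences of 1.80 to 5.77. KLF1-ER did not exceed 3.95 at any of them. Bcl9l, which encodes a beta-catenin coactivator, had 7 of 8 sites higher for the mutant, and KLF1-ER was no higher than 2.91 across the locus. At Asic4, 7 of 9 sites were higher for the mutant. Bbc3, which encodes the pro-apoptotic protein PUMA, had 9 sites within 8.945 kb, and 7 of these were higher for KLF1-E339K-ER, by 2.13 to 5.07. The other 2 Bbc3 sites ran against these. KLF1-ER had 4.93 and KLF1-E339K-ER 0.88 at one in an intron, and 4.46 and 2.88 at one over a coding exon, which was within 4-fold.

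The 5 genes picked for most sites higher for KLF1-ER also held mutant sites. Of all sites, 23.3% were higher for KLF1-ER and 55.3% for the mutant, so mixed genes here are no separate result. Irf2bpl, a transcriptional regulator gene, had 10 sites, 5 of them higher for KLF1-ER and 3 for KLF1-E339K-ER, with differences from -4.57 to 5.77. Plec, the plectin gene, had 4 sites higher for KLF1-ER and 2 higher for the mutant among 9, the 2 mutant sites lying 60 and 100.5 bp upstream of alternative starts. At Btg2, an antiproliferative gene, 4 of 8 sites were higher for KLF1-ER and 2 for the mutant. Sept9, a septin gene, had 4 and 3 of 7 sites on the 2 sides and none within 4-fold. Syf2, a splicing factor gene, had 4 of 5 sites higher for KLF1-ER, and at 1 of these, 89374 bp downstream, KLF1-E339K-ER was at its lowest value. Mixed loci of the mutant type were Casz1, a zinc finger gene, with 6 sites higher for the mutant and 2 for wild type among 9, and 8430427H17Rik with 4 and 2 among 12.

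**Figure D5:**
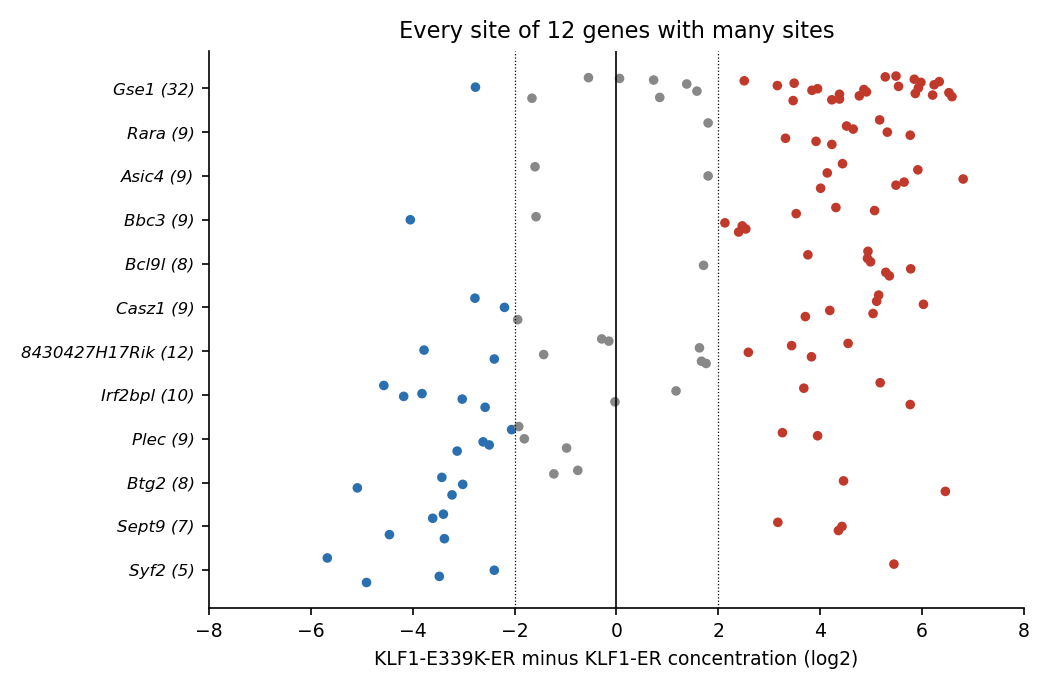
Difference between the 2 concentrations, mutant minus wild type (x axis, log2), at every site of 12 genes with many sites (y axis, number of sites in parentheses); within a gene the points follow their order along the chromosome from bottom to top. Dotted lines mark the 4-fold limits. Gse1 has 24 of its 32 sites to the right of them, and Irf2bpl, Btg2 and Sept9 have sites on both sides.

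Sites close to each other differed in the same direction more often than distant ones. Of the 474 pairs of adjacent sites whose midpoints were less than 1 kb apart, 282 (59.5%) were of the same class and 30 (6.33%) of opposite classes. At 1 to 10 kb opposite classes made up 160 of 993 pairs (16.1%), at 10 to 100 kb 454 of 1891 (24.0%) and beyond 100 kb 576 of 2173 (26.5%). The 30 close pairs of opposite class held concentrations that changed sides over less than 1 kb. At Ddit3, which encodes the stress response factor CHOP, midpoints 452.5 bp apart had 5.84 for KLF1-ER and 0.05 for KLF1-E339K-ER at one site and 2.23 and 5.96 at the other. Near Ccne1, the cyclin E1 gene, sites 978 bp apart had 5.10 and 1.64, then -0.09 and 5.34. At Mef2d a site with 7.55 for KLF1-ER and 2.91 for the mutant lay between sites with 0.50 and 5.10 and with 2.23 and 6.01. These pairs were picked for their opposite classes, and reads of one site can reach into the other at such distances.

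The function of the closest genes was described with 18 lists, which had 413 sites at 181 genes. The lists had been assembled with results of these data known, and the closest gene is not necessarily the gene a site acts on. Over all 5551 sites 55.3% were higher for KLF1-E339K-ER and 23.3% for KLF1-ER, with a median difference of 2.6, and 7 of the 18 lists had more than 50% of their sites higher for the mutant.

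Genes of the heme pathway had few mutant sites, and the few globin sites were evenly split. Of the 14 sites at 8 heme synthesis genes, 3 were higher for KLF1-E339K-ER, 6 for KLF1-ER and 5 were within 4-fold, with a median difference of -1.12. Slc25a38, the mitochondrial glycine carrier, had 3 sites higher for KLF1-ER, the strongest contrast being 5.89 against 0.66, and 1 site with 6.57 for KLF1-ER and 6.46 for KLF1-E339K-ER. Alas2, the erythroid first enzyme of the pathway, had 1 intronic site with 5.02 and 3.94, within 4-fold. Fech, the last enzyme, was the exception, with 2 sites higher for the mutant (5.09 against 2.08 and 5.16 against -0.09). Of the 10 globin genes, 3 had a site. Of their 6 sites, 2 were higher for KLF1-E339K-ER, both at Hbb-bh1, 2 for KLF1-ER, both at Hbb-y, and 2 were within 4-fold. The promoter of the embryonic gene Hbb-bh1 had 3.30 for KLF1-ER and 5.96 for KLF1-E339K-ER, while a site 7954 bp upstream of Hbb-y had 5.45 and 0.39. Both sites at Hba-a1, the adult alpha globin, were at or near the lowest values of both proteins. Alpha globin has near-identical gene copies and reads that mapped to several places had been removed, so these values are uncertain.

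Genes of the red cell membrane and skeleton had sites of every class. Among 46 sites at 18 genes, 17 (37.0%) were higher for KLF1-E339K-ER, 11 (23.9%) for KLF1-ER and 18 were within 4-fold. Slc4a1, the anion exchanger band 3, had 4 of 5 sites higher for the mutant, with 6.68 against 3.30 near its start. Sptb, beta spectrin, also had 4 of 5, up to 6.79 at its promoter (3.95 for KLF1-ER). The largest difference of the list was at Cd47, the surface signal against phagocytosis, where a site 428 bp downstream of the start had 7.88 for KLF1-E339K-ER and the lowest value for KLF1-ER, a difference of at least 7.97. At Epb4.9, the dematin gene, the wild type protein led at the promoter with 7.0 against 3.75, and at Add1, alpha adducin, with 6.36 against 3.39. Iron genes had 4 of 10 sites higher for the mutant, among them both sites of the mitochondrial iron importer Slc25a37, and 1 higher for KLF1-ER, at the promoter of the transferrin receptor gene Tfr2 (4.82 against 1.49).

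Erythroid transcription factor genes had the most sites of the 18 lists, with 72 sites at 18 genes. Of these, 38 (52.8%) were higher for KLF1-E339K-ER, 9 (12.5%) for KLF1-ER and 25 were within 4-fold. Within 10 kb of a start the list had 46 sites, 23 of them higher for the mutant and 6 for KLF1-ER. At Gata1, the promoter site had 7.43 for KLF1-ER and 6.79 for KLF1-E339K-ER, and a site 3581.5 bp upstream had 5.06 and 8.22. Tcf3, the E protein partner of TAL1, had 7 sites, all higher for the mutant, and KLF1-ER was at its lowest value at 4 of them. Zfpm1 had 10 sites, 5 higher for the mutant and 5 within 4-fold. Zbtb7a, a fetal globin repressor gene, had a start site with 5.73 and 7.94 and an intronic site at which KLF1-E339K-ER had 7.04 and KLF1-ER 0.91. Wild type protein led at both promoter sites of Nfe2l1 (6.42 against 4.16 and 6.34 against 3.21) and at 2 distal sites of Sox6.

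The genes of the KLF and SP family, relatives of KLF1 that read the same motif, had 34 sites, 14 of them higher for KLF1-E339K-ER and 11 (32.4%) for KLF1-ER. All 3 sites of Klf11 and 3 of 5 sites of Klf10 were higher for KLF1-ER. The opposite was found at Klf6, where the promoter had 6.26 for the mutant and the lowest value for wild type, and at Sp3 with 2 of 2. Cell cycle genes of the G1 to S step had 44 sites, 21 (47.7%) higher for the mutant and 10 (22.7%) for KLF1-ER. All 4 sites at E2f2, which encodes an E2F factor known as a KLF1 target, were within 4-fold, with up to 6.70 for KLF1-ER and 7.04 for KLF1-E339K-ER. The promoters of Rb1 (5.57 against 2.16) and Rbl1 (4.98 against 0.88), both of the retinoblastoma family, were higher for KLF1-ER. The inhibitor gene Cdkn1a had an intronic site with 6.91 for the mutant and 1.91 for KLF1-ER. Septin genes had 7 of 17 sites on each side, and both promoter sites of Sept10 were higher for KLF1-ER (5.84 against 1.25 and 5.46 against 1.05).

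Several lists outside the red cell genes had a larger share of mutant sites than all sites did. At 8 genes of BET bromodomain proteins and p300-type coactivators, 11 of 14 sites (78.6%) were higher for KLF1-E339K-ER and none for KLF1-ER. Ep300, the p300 acetyltransferase gene, had 4 such sites, up to 6.96 at the start (4.16 for KLF1-ER), and Chd4, a chromatin remodeller gene, had 6.30 against the lowest value. The BCL2 family had 10 of 13 sites (76.9%) higher for the mutant, 7 of them at Bbc3, with Bcl2 itself at 6.72 against the lowest value. The anti-apoptotic gene Mcl1 had 1 distal site, higher for KLF1-ER (4.77 against -0.38). TGF-beta and BMP signalling genes had 11 of 17 (64.7%) higher for the mutant, but 7 of 13 within 10 kb of a start, near the share over all sites, with 7.21 against the lowest value at Skil, an inhibitor of SMAD signalling. Genes of neurons and cell adhesion, a list drawn in part from genes already seen to be activated or bound in these data, had 24 of 28 sites (85.7%) higher for the mutant, so its count is no independent evidence. Rapgefl1 had 7.13 against the lowest value and Mex3a 7.06 against 0.50.

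The remaining lists varied. Ribosomal protein genes had 11 of 17 sites (64.7%) higher for KLF1-E339K-ER and 6 (35.3%) for KLF1-ER, with none within 4-fold. Within 10 kb of their starts these counts were 6 and 5, and the promoters of Rpl31 (7.42 against 2.38), Rps23 (6.17 against 2.13) and Rps19 (5.04 against 1.97) were higher for KLF1-ER. Fatty acid and sterol synthesis genes had 6 of 19 sites (31.6%) on each side, with a median difference of -0.74. Elovl1, a fatty acid elongase gene, had 3 promoter sites, all higher for KLF1-ER (up to 7.0 against 3.18), and Fads2, a desaturase gene, had 8.26 for the mutant and 3.23 for KLF1-ER. Erythropoietin and KIT signalling genes had 11 of 23 higher for the mutant and 2 for KLF1-ER, both at the kinase gene Pim1. The promoter of Epor, the erythropoietin receptor gene, was within 4-fold (6.66 and 6.55), and all 3 sites of Kit were higher for the mutant. Myosin and actin genes had 11 and 5 of 24, autophagy genes 7 and 2 of 12 and megakaryocyte genes 1 and 1 of 3.

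The closest genes of all classes were expressed above the median of the listed genes. Mean expression was available for 83.1% of the sites higher for KLF1-E339K-ER, 83.6% of those higher for KLF1-ER and 88.2% of those within 4-fold. Its median over sites was 6.26, 5.91 and 6.37 as log2 CPM, against 5.27 over all listed genes. At promoter sites alone it was 6.29, 5.61 and 6.13. These are averages over libraries with and without KLF1 and say nothing of the effect of either protein.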

How the data were processed

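Per the labels, chromatin of induced K1-E339K-ER cells was immunoprecipitated with an antibody to the estrogen receptor. The authors mapped the reads to mm9 with TMAP, discarded duplicates and reads that mapped to several places, called peaks with MACS2 and GEM and compared the proteins with DiffBind, whose version is not given in the sources used here. The deposited site table gives, for each site, a log2 concentration per protein, the log2 of the mean normalised read count. Its overall column was not used. The deposited gene table gives mean expression as log2 CPM, from reads mapped with TMAP and TopHat2 2.0.10 and fitted with limma. The authors' fold changes, t statistics, p-values and FDRs in these tables hold their own comparisons and were not used, and neither was the second gene table. There were 0 columns of other samples.

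Classes were set from the difference of the 2 concentrations, with a limit of 4-fold (2 on the log2 scale). Closest genes and distances were taken as deposited. The deposited distance is the TSS minus the midpoint on the chromosome, and it was turned to the strand of the gene. Of the 5168 sites whose gene is in GENCODE M1, 4627 (89.5%) then lay within 50 bp of the position given by a TSS of that gene. Symbols stored as dates were restored to septin and March genes at 20 sites. Exons, introns and sequences came from GENCODE M1 and the NCBIM37 (mm9) genome. The motif was searched in 101 bp about each midpoint, on both strands. Promoter sequences of another build were not used. Scripts ran in Python 3.11.15 with numpy 2.4.6, pandas 2.3.3, scipy 1.17.1 and pysam 0.24.0, and were tested on simulated data.

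Named sites were, in the class of sites higher for each protein, the 5 with the highest concentration of that protein and the 5 with the largest difference away from lowest values, and within 4-fold the 5 with the highest sum. Named genes were the 5 with most sites of each class or of both opposite classes, and members of the gene lists. Some members of these lists are not reported here by name. Pairs of opposite class, 9-base words, the shorter words and the side of the TSS were chosen after their values were seen. The members and lists were chosen with earlier results of these data known. The deposited values hold 1 number per protein and site and no counts, so the depth is unknown and no error, interval or test was computed.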

Additional observations from a re-analysis of the deposited data

How the results depend on the processing

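No paired analysis was possible because each protein has 1 deposited value per site, with no replicate, and for the same reason no replicate could be left out. As reported, 3068 sites were higher for KLF1-E339K-ER, 1295 for KLF1-ER and 1188 were within 4-fold. Centring the differences gave 1497, 2003 and 2051 sites, and quantile normalisation gave 1744 for the mutant and 2112 within 4-fold. A mean concentration of at least 4 left 530 and 410 sites for the mutant and wild type. Leaving out the lowest listed values left 1645 for the mutant. Within 4-fold, a limit of 2-fold left 546 sites and one of 8-fold gave 2066. The promoter share for the mutant and wild type was 25.3% and 35.8% with a window of 500 bp, 45.6% and 47.3% with 2.5 kb, 42.3% and 45.9% with reference starts, and 38.8% and 44.6% without lowest values. With 8-fold classes it was 35.1% and 35.2%, which left almost no difference between the 2 classes. The share with a purine at position 5 was 60.3% and 22.5% in 100 bp either side and 69.8% and 29.8% in whole sites, and the pyrimidine share 32.8% and 73.9%, then 45.6% and 79.8%. Without lowest values these shares were 43.7% and 24.0% for the mutant. A neighbour within 5 kb was found for 35.2% and 26.0%, and within 50 kb for 68.9% and 63.2%. Of 54 such values, 21 stayed within the limits set for a change and 33 moved beyond them. The order of purine and pyrimidine shares was the same wherever these shares were recomputed. They were not recomputed for classes from centred or quantile normalised values or from the mean concentration limit, so their dependence on the scaling is unknown. The share of promoter sites upstream of the TSS, an alternative set chosen after seeing the data, ran from 37.9% to 51.7% for the mutant and from 67.8% to 75.6% for wild type. The missing replicates and depth limit every value here.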

Other observations

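Between the sites higher for either protein, motifs of other factors differed by fewer percentage points than the C and G forms of the KLF1 motif. Away from promoters, the E-box CAGCTG was found within 50 bp of 16.9% of the site midpoints higher for KLF1-E339K-ER, 14.6% of those higher for KLF1-ER and 18% of those within 4-fold, against 10.9% to 11.8% in flanking windows. The E-box CATCTG was found in 15.8%, 14.8% and 14.6%, against 15.0% to 16%. The AP-1 motif, TGACTCA or TGAGTCA, was found in 5.25%, 3.58% and 5.12%, against 3.11% to 4.19%. The motif of ETS factors was found in 42.8%, 35.2% and 44.2%, against 41.9% to 43.6%. Within promoters, the NRF1 motif was found in 3.16%, 5.00% and 2.76% of the sites, against 0.370% to 0.723% of the flanking windows, and CCAAT in 20.7%, 18.7% and 16.4%, against 21.5% to 22.8%. The YY1 motif was found in 39 (3.52%), 8 (1.48%) and 17 (3.13%) of these promoter sites, against 1.48% to 2.49%. Both strands were searched, and a match describes the sequence and no binding.

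The low values of the 2 concentrations fell on different steps. All 2669 KLF1-ER values of 2.5 or less lay within 0.01 of the log2 of the lowest value times a multiple of 0.5, whereas 212 of 904 such KLF1-E339K-ER values (23.5%) did. These counts include the 1424 KLF1-ER and 147 KLF1-E339K-ER values at the lowest itself, which match by definition. For KLF1-E339K-ER the multiples searched ended below 2.5, so values just under that limit could not match.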
